A study of Mus musculus with 6 samples.

Results

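The CHD family of chromatin remodellers was taken as the 9 genes whose symbol in the count table is exactly Chd1, Chd2, Chd3, Chd4, Chd5, Chd6, Chd7, Chd8 or Chd9, out of 57010 gene IDs. Each symbol stood on a single ID, and all 9 genes had counts in every library and passed the filter on low counts. The data are RNA counts from mouse testis after immunoprecipitation with an antibody to PNMA4, a capsid-like protein derived from a retrotransposon. The antibody was applied to dense material, namely fractions 8 and 9 of an iodixanol gradient loaded with material from the top of 70% sucrose. Of the 6 libraries, 3 came from wild type testes and 3 from testes without PNMA4, and each lysate pooled 8 testes of mice aged 3 months. In the group lacking PNMA4, replicates 1 and 2 are labelled Pnma4 KO and replicate 3 is the DKO of Pnma1 and Pnma4, which the labels count as the third replicate. The labels' protocol gives C57BL/6J for wild type and names no other strain for the knockouts. Lysates of 1 group are given as biological replicates, and the DKO is a single library.

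CHD proteins use the energy of ATP to slide, space or evict nucleosomes, and carry paired chromodomains beside an SNF2-type ATPase motor. They fall into 3 subfamilies, with Chd1 and Chd2 in the first, Chd3, Chd4 and Chd5 in the second, and Chd6 to Chd9 in the third. Chd3, Chd4 and Chd5 are the alternative motors of the NuRD complex, which joins remodelling to histone deacetylation. Chd5 is known mainly from the nervous system and the testis, where it acts in spermatids during the exchange of histones for protamines.

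Counts of the deleted genes matched the labels. Moap1, which encodes PNMA4, had 7, 26 and 27 counts in wild type and 0 in every library lacking PNMA4, and Pnma1 had 0 counts only in the DKO. Total counts ran from 3138657 to 6367930 per library. The 18S ribosomal RNA-related gene Rn18s-rs5 took 57.5% of the counts of the DKO and 27.3% to 36.1% of those of the other 5 libraries. Levels below are CPM, counts scaled to a common library size after TMM, where TMM is a scaling that sets the bulk of genes equal between libraries. These levels do not measure enrichment over whole testis, since RNA from before the immunoprecipitation was not analysed here. For the same reason fewer cells of a type, less RNA per cell and a lower recovery cannot be told apart.

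Chd5 and Chd4 took most CHD reads in every library. Chd5 (ENSMUSG00000005045, chromosome 4, 152338646 to 152390194 in GRCm38.p6) stood at 861, 688 and 569 CPM in wild-type replicates 1 to 3. It stood at 519 and 772 CPM in the Pnma4 KO libraries and at 457 CPM in the DKO. Wild-type replicate 1 was thus the highest library and the DKO the lowest, and the groups overlapped. With a mean of 644 ± 156 CPM (SD, n = 6), Chd5 had more reads than 99.6% of the 13413 genes tested.

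Chd4 (ENSMUSG00000063870, chromosome 6, 125095980 to 125130591), the NuRD motor of most dividing cells, stood at 587, 439 and 430 CPM in wild type. It stood at 329 and 514 CPM in the Pnma4 KO libraries and at 359 CPM in the DKO. Its mean was 443 ± 96.0 CPM (SD, n = 6), above 99.0% of the genes tested. Chd3 (ENSMUSG00000018474, chromosome 11, 69343273 to 69369499), the third NuRD motor, stood at 140, 113 and 92.6 CPM in wild type. It stood at 86.3 and 116 CPM in the Pnma4 KO libraries and 79.6 CPM in the DKO. For both genes wild-type replicate 1 was the highest library and the groups overlapped. The lowest library was Pnma4 KO replicate 1 for Chd4 and the DKO for Chd3.

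The first subfamily had fewer reads. Chd1 (ENSMUSG00000023852, chromosome 17, 15704967 to 15772612), which binds methylated histone H3 at active genes and travels with elongating polymerase, stood at 76.8, 62.9 and 88.5 CPM in wild type. It stood at 60.6 and 101 CPM in the Pnma4 KO libraries and at 87.3 CPM in the DKO. Chd1 was the single member whose highest library was Pnma4 KO replicate 2. Chd2 (ENSMUSG00000078671, chromosome 7, 73426652 to 73541746), the close relative of Chd1, stood at 68.1, 39.3 and 52.8 CPM in wild type. It stood at 40.9 and 54.4 CPM in the Pnma4 KO libraries and at 35.4 CPM in the DKO, its lowest library.

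The third subfamily spanned 29.2 to 99.3 CPM in mean level. Chd8 (ENSMUSG00000053754, chromosome 14, 52198151 to 52258042), known as a repressor of beta-catenin targets and as an autism gene in people, varied least between libraries. It stood at 97.5, 103 and 116 CPM in wild type, at 86.3 and 101 CPM in the Pnma4 KO libraries and at 91.6 CPM in the DKO. Its highest library was only 1.35 times its lowest. Chd9 (ENSMUSG00000056608, chromosome 8, 90828302 to 91054516) stood at 44.2, 45.9 and 61.1 CPM in wild type, at 29.8 and 58.6 CPM in the Pnma4 KO libraries and at 44.8 CPM in the DKO. Chd7 (ENSMUSG00000041235, chromosome 4, 8690402 to 8868449), the gene mutated in CHARGE syndrome, stood at 43.9, 33.6 and 28.6 CPM in wild type, at 26.7 and 39.0 CPM in the Pnma4 KO libraries and at 35.1 CPM in the DKO. Pnma4 KO replicate 1 was the lowest library for all 4 genes of this subfamily.

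Chd6 (ENSMUSG00000057133, chromosome 2, 160946978 to 161109086) was the member with the fewest reads and the widest spread. It had 128, 199 and 266 counts in wild type, 49 and 225 in the Pnma4 KO libraries and 83 in the DKO. These are 33.6, 25.5 and 40.9 CPM, 15.5 and 32.1 CPM, and 27.8 CPM. The highest library was 2.63 times the lowest, and the groups overlapped. No member had fewer than these 49 counts in any library.

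**Figure D1:**
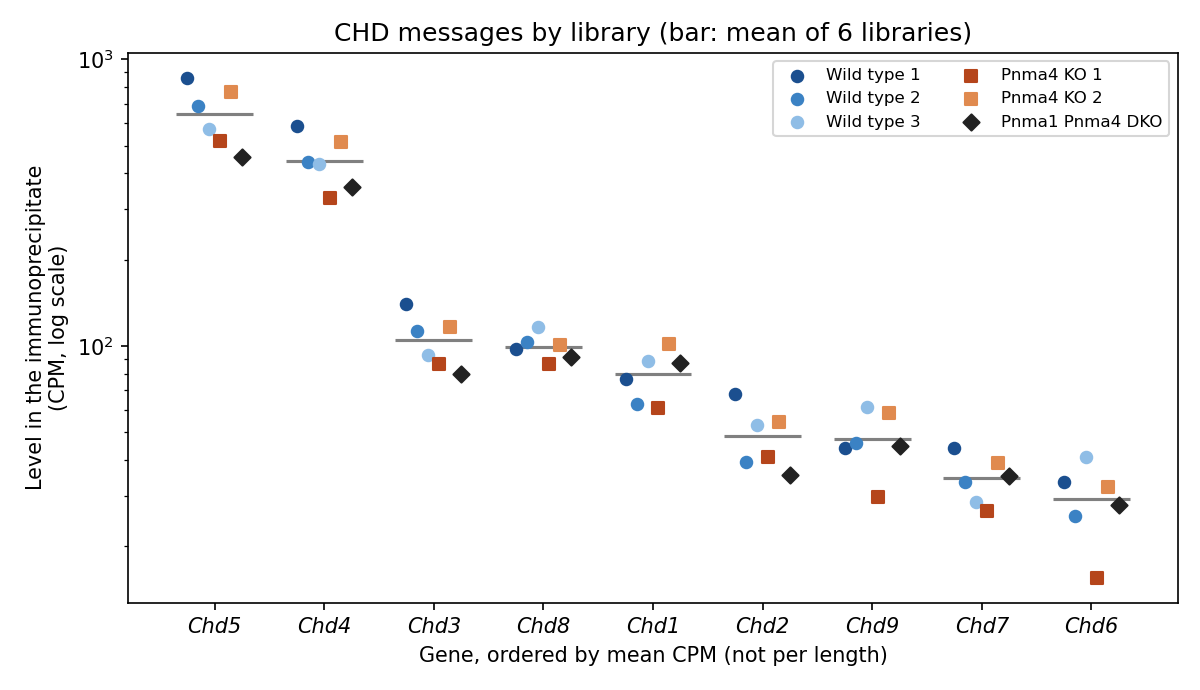
Level of each CHD gene in the 6 libraries (CPM on a log axis), ordered by mean CPM over 6 libraries (grey bar), which is not per length. Chd5 and Chd4 average 644 and 443 CPM, the other 7 genes 29.2 to 105 CPM, and the symbols of the groups overlap for every gene.

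By mean CPM the order was Chd5, Chd4, Chd3, Chd8, Chd1, Chd2, Chd9, Chd7 and Chd6. This is an order of reads and not of messenger molecules, because a longer transcript yields more reads and transcript lengths were not used here. Of the 8 pairs of neighbours in this order, 4 kept their direction in 6 of 6 libraries. These were Chd5 over Chd4 (1.45-fold), Chd4 over Chd3 (4.23-fold), Chd1 over Chd2 (1.66-fold) and Chd9 over Chd7 (1.36-fold). Each had an exact two-sided sign-flip permutation p of 0.03125 over 6 libraries, the smallest that 6 libraries can give. Adjusted over the 8 pairs this was 0.0625 (exact permutation test). The same 6 libraries set the order and its pairs, so these p-values add no support to the order.

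None of the 8 pairs had an adjusted p of 0.05 or less, which even the 4 pairs at the smallest p could not reach. The other 4 pairs did not keep their direction in all libraries. Chd3 was above Chd8 in 3 of 6 libraries, with a log2 ratio of 0.05 ± 0.30 (SD, n = 6). Chd2 was above Chd9 in 2 of 6 libraries, with a log2 ratio of 0.03 ± 0.40 (SD, n = 6). Chd8 was above Chd1 and Chd7 above Chd6 in 5 of 6 libraries each, with log2 ratios of 0.34 ± 0.27 and 0.28 ± 0.43 (SD, n = 6, adjusted exact permutation p = 0.100 and 0.250). Without wild-type replicate 1, Chd8 stood above Chd3 and Chd9 above Chd2, so that 5 of 9 genes kept their place. Among 32 SNF2-family ATPases, the 9 CHD genes included, Ep400 had the most reads (752 ± 98.6 CPM) and Chd5 and Chd4 followed it, again in reads and not per length. The 23 others had a median of 27.2 CPM and the CHD genes one of 79.6 CPM.

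The make-up of the CHD reads is free of any scaling between libraries, since it is a share within each library. Chd5 held 44.1% of the CHD counts of wild-type replicate 1 (95% Wilson interval 43.0% to 45.2%), 44.4% of replicate 2 (43.5% to 45.3%) and 38.5% of replicate 3 (37.5% to 39.4%). In the group lacking PNMA4 it held 43.5% (41.9% to 45.1%) and 43.1% (42.3% to 44.0%) in the Pnma4 KO libraries and 37.5% (36.0% to 39.1%) in the DKO. These intervals cover counting error only and leave out the spread between libraries. Even for counting they may be too narrow, because several reads can come from 1 molecule and no molecular identifiers are named. Wild-type replicate 3 and the DKO, libraries of different groups, thus had the low shares, and their intervals overlap.

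The mean share of Chd5 was 42.3% ± 3.35 over the wild-type libraries against 41.4% ± 3.35 over the others (SD, n = 3 each). That of Chd4 was 29.1% ± 0.885 and 28.6% ± 0.992, and it stayed between 27.5% and 30.1% in all 6 libraries. The 3 NuRD motors together held 73.6% to 81.3% of CHD counts. Chd1 and Chd2 held 6.59% to 10.1% and Chd6 to Chd9 held 11.2% to 16.7%. For all of these shares the groups overlapped. The CHD genes as a whole took 0.198%, 0.198% and 0.158% of all counts in wild type, 0.120% and 0.197% in the Pnma4 KO libraries and 0.0761% in the DKO, where Rn18s-rs5 took its largest share.

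**Figure D2:**
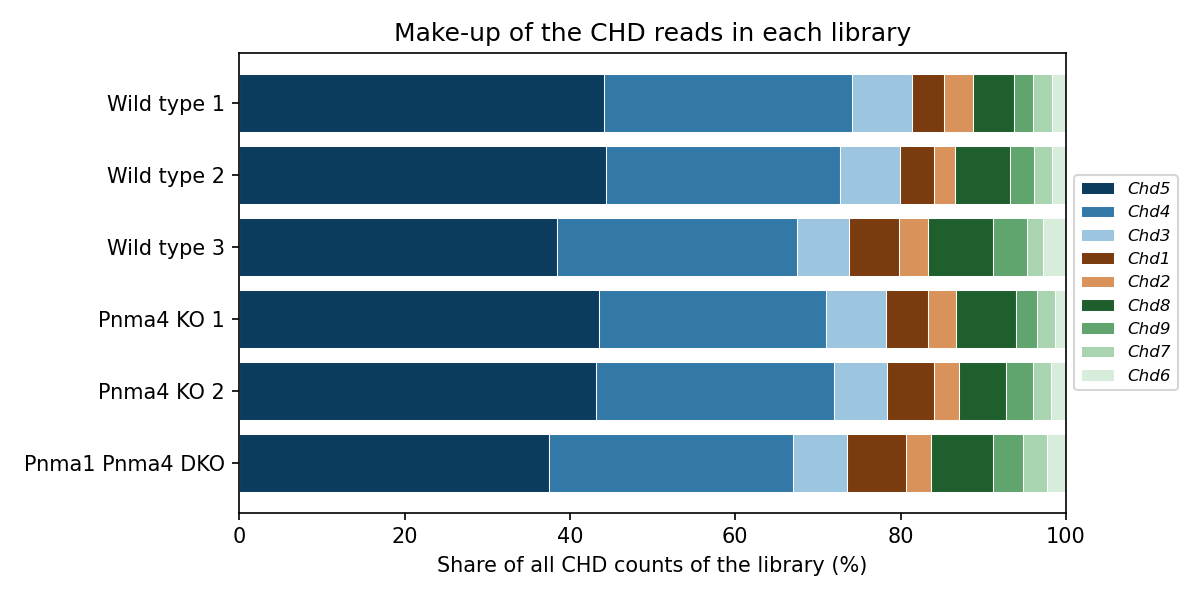
Share of each gene in the CHD counts of every library (%), with 1 bar per library. Chd5, Chd4 and Chd3 (blue) fill 73.6% to 81.3% of each bar, and Chd5 is smallest in wild-type replicate 3 (38.5%) and the DKO (37.5%).

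Chd3 and Chd5 kept a nearly fixed ratio across libraries, a pattern that was picked out after the values were seen. Chd5 had 6.16, 6.10 and 6.14 times the counts of Chd3 in wild type, 6.01 and 6.64 times in the Pnma4 KO libraries and 5.74 times in the DKO. The coefficient of variation of this ratio was 4.76%, against the 5.17% that counting error alone gives. The ratio of Chd5 to Chd4 ran from 1.27 to 1.58, with a coefficient of variation of 8.78% against 3.04% from counting. The ratios of Chd5 to the other 6 members varied by 15.0% to 30.6%, against 5.21% to 9.64% from counting. The ratio to Chd7, also singled out after the values were seen, was 19.5 to 20.5 in the first 5 libraries and 13.0 in the DKO. The DKO is a single library with 105 counts of Chd7, and counting error alone gives this ratio a variation of 8.42%.

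The same 6 values per gene can be given as correlations, which restate these ratios and add no support to them. Over the 6 libraries, log2 levels of Chd3 and Chd4 had Pearson correlations with Chd5 of 0.99 and 0.93, given as descriptions of 6 points that share 1 scaling per library. Among 7105 genes of at least 10 CPM, only Cep164, a centriole appendage protein (r = 0.99), and Ift172, of the transport system of cilia (r = 0.99), were more like Chd5 than Chd3 was. Chd4 had 70 genes ahead of it. Chd2 and Chd7 had r of 0.78 and 0.71, and Chd6, Chd9, Chd8 and Chd1 had r of 0.38, 0.32, 0.31 and 0.12. Over all genes compared the median r was 0.08.

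The highest and lowest libraries followed the subfamilies only in part. Chd2, Chd3, Chd4, Chd5 and Chd7 were highest in wild-type replicate 1, a library that was the highest for 18.3% of all genes tested. Chd6, Chd8 and Chd9 were highest in wild-type replicate 3. Chd2, Chd3 and Chd5 were lowest in the DKO and the other 6 members in Pnma4 KO replicate 1. These libraries were the lowest for 21.4% and 17.0% of all genes tested. Pnma4 KO replicate 1 had the fewest total counts, and the DKO had the fewest CHD counts (3641, against 3763 in Pnma4 KO replicate 1). The part of depth in the CHD levels was not tested.

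**Figure D3:**
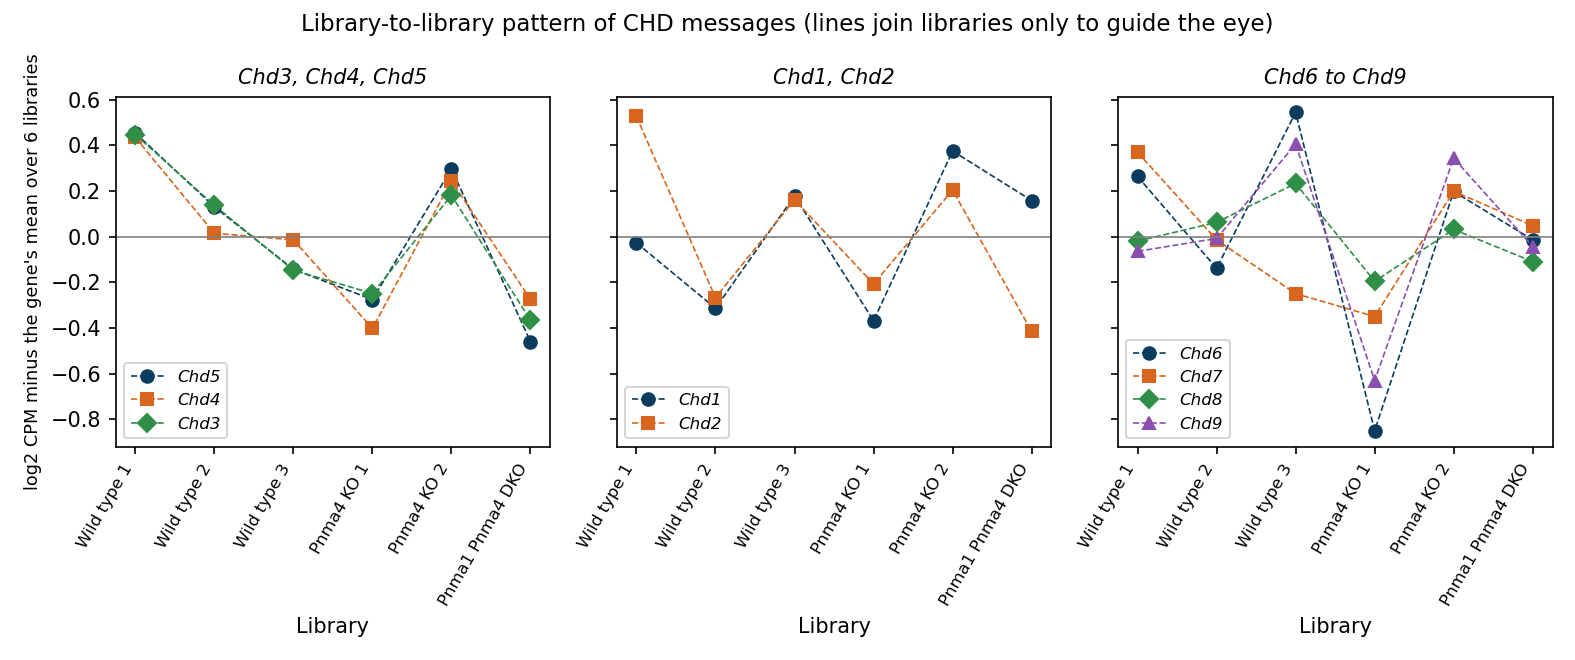
Log2 CPM of each CHD gene in every library minus its mean over 6 libraries, with 1 panel per subfamily. Chd3, Chd4 and Chd5 vary together, highest in wild-type replicate 1, while Chd6, Chd8 and Chd9 are highest in wild-type replicate 3.

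Whether CHD messages were recovered with PNMA4 beyond the level in testes without it was asked by comparing wild type with the group lacking PNMA4. No member passed the test. Of 13413 genes 8 were called, or 0.0596%, by edgeR's quasi-likelihood test at an adjusted p of 0.05, and 0 of the 9 CHD genes were among them (3 genes, 0.0224%, were higher in wild type and 5, 0.0373%, lower). The deleted gene Moap1 was 1 of the 3 higher in wild type. None of the 9 had an unadjusted p under 0.05 in edgeR, DESeq2 or limma-voom, where 2.92% of all genes had one in edgeR. In edgeR the adjusted p was 1.00 for each member. For no member did the 3 wild-type libraries lie apart from the other 3, which was so for 6.69% of all genes tested.

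The fold changes of the members were small and mostly on the same side of 0. Chd5 averaged 706 ± 147 CPM over the wild-type libraries against 583 ± 167 CPM over those lacking PNMA4 (SD, n = 3 each). The log2 fold change, wild type over lacking PNMA4, was 0.28 with a standard error of 0.24. Chd4 (485 ± 88.1 and 401 ± 99.5 CPM) had 0.27 with a standard error of 0.23, and Chd3 (115 ± 23.7 and 94.1 ± 19.5 CPM) 0.28 with a standard error of 0.22. For all 3 NuRD motors the libraries of the groups overlapped and the interval of the fold change held 0.

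Chd6 had the largest value, a log2 fold change of 0.38 with a standard error of 0.25 (33.3 ± 7.71 and 25.1 ± 8.60 CPM). Its unadjusted p of 0.145 in edgeR was the lowest of the 9. Chd2 had 0.27 (53.4 ± 14.4 and 43.6 ± 9.77 CPM), Chd8 0.18 (106 ± 9.54 and 93.0 ± 7.44 CPM) and Chd9 0.17 (50.4 ± 9.34 and 44.4 ± 14.4 CPM). Chd7 had 0.06 (35.4 ± 7.81 and 33.6 ± 6.31 CPM). Chd1 had −0.13 (76.1 ± 12.8 and 83.1 ± 20.7 CPM), and this value was 0.16 without scaling factors, a setting that moves the median of all genes to 0.31.

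In all, 8 of 9 members were above 0, where 52.0% of all genes tested were. The median was 0.27 for the members and 0.01 for all genes tested. Among the 3763 genes with at least the mean level of Chd6, 59.5% were above 0. The members are not independent of each other, since most shared their high and low libraries. Their median was 0.11 without wild-type replicate 1 and 0.14 without Pnma4 KO replicate 1. It was 0.47 without Pnma4 KO replicate 2 and 0.17 without the DKO. The unadjusted p of Chd6 was 0.0471 without wild-type replicate 2 and 0.0468 without Pnma4 KO replicate 2 (edgeR adjusted p = 1.00 and 0.987).

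The intervals say how large a difference could have gone unseen. All 9 members had a 95% interval between −1 and 1 on the log2 scale, so that a 2-fold difference in either direction is outside it. This was so for 71.1% of all genes tested and for 98.6% of genes with at least the level of Chd6. For Chd5 the interval ran from 0.858-fold to 1.71-fold, for Chd4 from 0.873-fold to 1.68-fold and for Chd6 from 0.907-fold to 1.88-fold. The number of members with such an interval was 8 without wild-type replicate 2 or the DKO, 5 without Pnma4 KO replicate 2, and 1 without scaling factors. In the fit with 3 genotypes it was 8 for wild type over Pnma4 KO and 4 for wild type over the DKO.

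**Figure D4:**
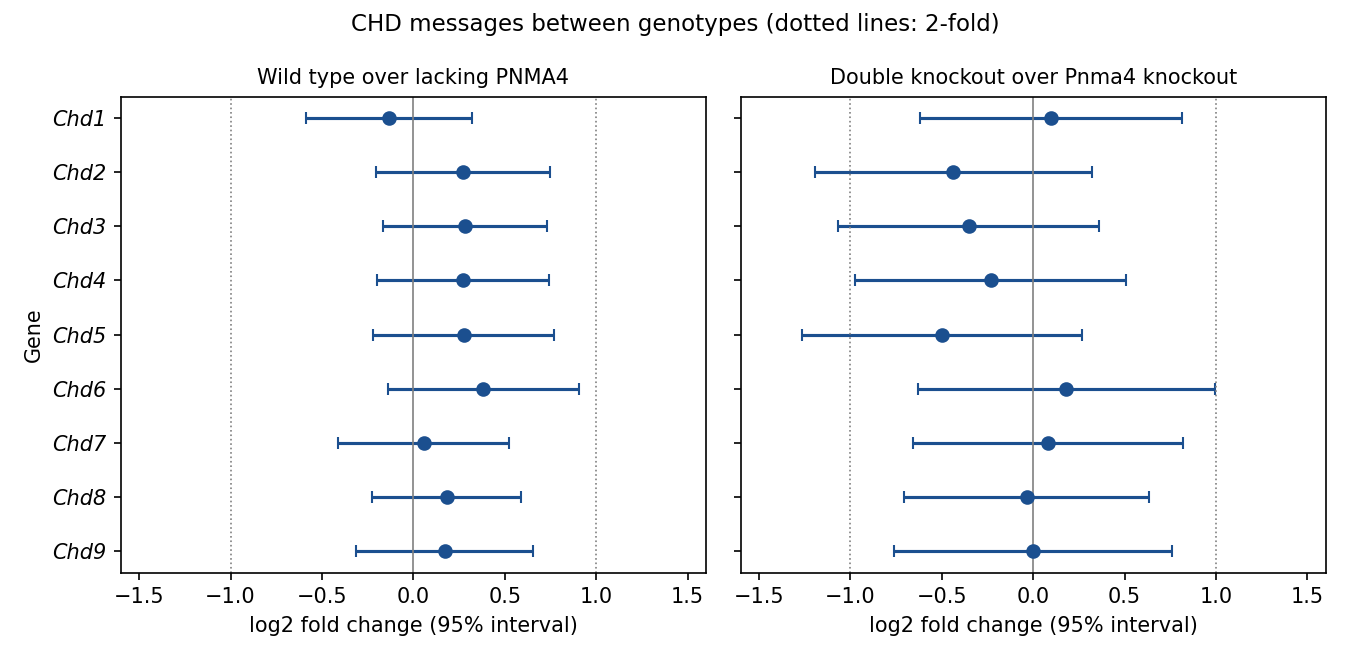
Log2 fold change of each CHD gene with its 95% interval from edgeR, for wild type over lacking PNMA4 (left) and for the DKO over the Pnma4 KO libraries (right), with dotted lines at 2-fold. Every interval crosses 0, and those on the right are wider because the DKO is a single library.

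The DKO was then set against the Pnma4 KO libraries, with its own spread taken to be like that of the other genotypes. Chd5 stood at 457 CPM in the DKO against 519 and 772 CPM (a log2 difference of −0.50 with a standard error of 0.38, adjusted p = 0.976 in edgeR). Chd2 had −0.44 (standard error 0.37) and Chd3 −0.35 (standard error 0.35), with edgeR adjusted p of 0.983 and 0.995. For these 3 of the 9 genes the DKO was below both Pnma4 KO libraries, as it was for 35.1% of genes tested, and a 2-fold lower level is still inside the interval. Chd4 had −0.23, Chd8 −0.03 and Chd9 −0.002, and Chd6, Chd1 and Chd7 had 0.18, 0.10 and 0.08. Without scaling factors the last 3 were below 0, at −0.59, −0.67 and −0.68, where the median of all genes was −0.76.

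In this contrast 0 of 9 members were called, where 0.0746% of genes tested were. None had an unadjusted p under 0.05 in edgeR or DESeq2, where 6.19% of genes tested had one in edgeR and 2.47% had one and were lower in the DKO. Without scaling factors 4 members had one, all below 0, as did 29.0% of genes tested in either direction. Below 0 were 6 of 9 members and 50.5% of genes tested, and the interval lay within 1 of 0 for 6 of 9 members and 29.0% of genes tested. The median was −0.03 for the members and −0.01 for all genes. The values depended on which Pnma4 KO library was kept. Chd5 had −0.76 without replicate 1 and −0.21 without replicate 2, and Chd9 had −0.39 and 0.56. In the same fit, wild type over Pnma4 KO called 0 members (0.0671% of genes tested) and wild type over the DKO called 0 (0.276%). Against the DKO the lowest adjusted p of a member was 0.649, for Chd5, with a log2 fold change of 0.63 and a standard error of 0.36.

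Summed by list, markers of somatic cells were highest in the DKO, the lowest library for Chd2, Chd3 and Chd5. The 9 CHD genes together stood at 1218 CPM there, against 1194 and 1789 CPM in the Pnma4 KO libraries and 1480 to 1952 CPM in wild type. Together, 16 markers of Leydig cells reached 643 CPM in the DKO, 299 to 326 CPM in wild type and 280 to 342 CPM in the Pnma4 KO libraries. Those of Sertoli cells, 18 genes, reached 657 CPM, 322 to 450 CPM and 335 to 423 CPM in the same order. For 14 peritubular, vascular and stromal markers it was 129, 76.2 to 89.4 and 80.0 to 85.4 CPM, and for 11 macrophage and leukocyte markers 38.1, 26.3 to 29.5 and 27.3 to 34.3 CPM. For the DKO over the Pnma4 KO libraries the median log2 difference was taken over the markers that passed the filter. It was 0.82 for 16 Leydig cell markers and 0.82 for 16 Sertoli cell markers. It was 0.96 for 10 peritubular, vascular and stromal markers and 0.24 for 6 macrophage and leukocyte markers, against −0.01 for all genes tested. Of these markers 0, 0, 1 and 1 were below 0, in the same order. The stromal-list gene Vwf stood at 14.7 CPM in the DKO and at 24.8 and 17.6 CPM in the Pnma4 KO libraries. No marker of these 4 lists was at 0 in all libraries. Of 12 epididymis and sperm-tract markers, Lcn5, Lcn9, Adam28 and Gpx5 were at 0 throughout, and the sum was 28.4 CPM in the DKO, 9.21 to 12.9 CPM in wild type and 16.4 to 23.8 CPM in the Pnma4 KO libraries. The part of these cells in the CHD values was not tested.

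Markers of germ cells were present in all libraries. Elongating spermatid markers summed to 3320 to 4414 CPM in wild type, 3811 to 4236 CPM in the Pnma4 KO libraries and 3954 CPM in the DKO. Round spermatid markers summed to 514 to 535, 531 to 559 and 533 CPM, and spermatocyte markers to 1699 to 1982, 1472 to 1756 and 1661 CPM. Spermatogonia markers summed to 72.5 to 75.6, 69.2 to 79.3 and 94.97 CPM, highest in the DKO. No tested member of these 4 lists, or of the 4 lists of somatic cells, passed between wild type and the group lacking PNMA4. Of all genes tested 0.0596% passed. Crisp1, a secreted protein of the epididymis, passed, at 0.440 ± 0.254 CPM in the wild-type libraries and 5.79 ± 2.56 CPM in the others (a log2 difference of −3.57 with a standard error of 0.56, adjusted p = 0.00244 in edgeR, SD with n = 3 each).

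No partner of the CHD proteins was called between wild type and the group lacking PNMA4, where 0.0596% of all genes tested were. At so low a share, lists of this size would seldom hold a call. Of 16 partners of the NuRD motors in the NuRD and ChAHP complexes, all tested, 0 were called and 7 were above 0, with a median of −0.05. Gatad2a, a NuRD subunit, averaged 108 ± 18.5 CPM over the wild-type libraries against 93.9 ± 10.1 CPM over the others, and Cbx5, a heterochromatin protein, 162 ± 59.0 against 143 ± 37.1 CPM (SD, n = 3 each). Of the 10 genes of the PAF1 complex, FACT and related elongation factors, which work beside Chd1, 0 were called and 10 were above 0, with a median of 0.19. Among them Supt6, a histone chaperone of elongation, stood at 135 ± 26.0 and 106 ± 25.5 CPM. These counts stand beside the 52.0% of all genes above 0 and their median of 0.01.

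Other chromatin genes are set beside the same shares of all genes tested, 0.0596% called and 52.0% above 0. Of 7 partners of Chd7 and Chd8, such as Arid2 (833 ± 132 and 749 ± 101 CPM) of a SWI/SNF complex, 0 were called and 4 were above 0 (median 0.15). Of the 23 other SNF2-family ATPases 0 were called and 14 were above 0 (median 0.05). Smarca4, a SWI/SNF motor, had a log2 fold change of 0.30 with a standard error of 0.22. Of 16 genes of the exchange of histones for protamines, the step in which Chd5 acts, 0 were called and 9 were above 0 (median 0.03). There the transition protein gene Tnp1 had −0.46 (standard error 0.25) and the proteasome activator gene Psme4 −0.17 (standard error 0.24).

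Of genes that overlap the members, only Chaserr and Gm22442 were examined, and both had fewer counts than their member in every library. The RNA gene Chaserr (chromosome 7, 73539798 to 73558395), which overlaps one end of Chd2 in GRCm38.p6 and is known to restrain Chd2, was named after its values were seen. Chd2 had 259, 307 and 344 counts in wild type, 129 and 381 in the Pnma4 KO libraries and 106 in the DKO. Chaserr had 6, 23 and 62, 19 and 47, and 14 counts in the same order. It averaged 4.68 ± 4.25 CPM over the wild-type libraries against 5.81 ± 1.03 CPM over the others, and it did not pass the test (edgeR adjusted p = 1.00). Gm22442, a small RNA gene inside Chd3, had 7 to 17 counts. Whether counting used strand is not given in the sources used here.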

How the data were processed

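The authors deposited 1 table of raw counts per Ensembl gene ID, with symbols, and the counts were used as deposited. The submitters' processing notes name bcl2fastq 2.20, STAR 2.5.2b, featureCounts, DESeq2 and GRCm38 without roles. How strand was set, and which annotation release was counted, is not given in the sources used here. Coordinates come from RefSeq genes of GRCm38.p6.

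Counts were filtered with filterByExpr (minimum count 10, minimum total 15), scaled by TMM (factors 0.628 to 1.29) and tested in R 4.3.3 with edgeR 4.0.16 (glmQLFit, glmQLFTest), over 13413 genes, with Benjamini-Hochberg adjustment at 0.05. A fit with 3 genotypes gave the contrasts of the DKO. Standard errors are the absolute log2 fold change over the square root of F, and intervals cover 95%. The step was tested on simulated data. No 2 libraries agreed within sampling noise (chi-square per gene at least 6.28).

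The planned order per kb was replaced by an order of CPM, because the tables used here gave gene spans but no transcript or coding lengths. Alternatives were DESeq2 1.42.0, limma-voom (limma 3.58.1), other scalings and filters, the replicate block and leaving out each library. Named genes were the members, the deleted genes, up to 3 genes per list by level or p, and the 3 genes most like Chd5. The members, lists and comparisons were chosen with earlier results of these data known.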

Additional observations from a re-analysis of the deposited data

How the results depend on the processing

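No CHD gene was called in any of the alternatives to either comparison, and 245 of 261 log2 fold changes of members kept their direction. For wild type over lacking PNMA4, Chd1 was 0.16 without scaling factors, and with 1 library left out it ran from −0.32 to 0.040, Chd7 from −0.12 to 0.19 and Chd9 from −0.043 to 0.44. For the DKO over Pnma4 KO, no scaling factors gave −0.67, −0.59 and −0.68 for Chd1, Chd6 and Chd7, and Chd9 was 0.032 at a minimum count of 50 and 0.0048 in DESeq2. With 1 library left out, Chd1 ran from −0.22 to 0.50, Chd4 from −0.52 to 0.10, Chd6 from −0.21 to 0.81, Chd7 from −0.15 to 0.37, Chd8 from −0.14 to 0.059 and Chd9 from −0.39 to 0.56. The cause of these changes was not tested. The number of all genes called for wild type over lacking PNMA4, 8, was 31 without the filter, 2 at a minimum count of 50, 37 for wild type over the DKO, and 8 to 18 with 1 library left out. That for the DKO over Pnma4 KO, 10, was 201 without scaling factors, 31 without the filter and 10 to 35 with 1 library left out. From 5 to 9 CHD genes kept their place in the order of reads with 1 library left out. Leaving out a Pnma4 KO library compares 1 library with 1, whose spread is taken from wild type. The order per kb of transcript or coding length was not run.

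Libraries share replicate numbers across groups, and the labels give the DKO its shared number only as analysed within the group lacking PNMA4. Correlations of same-numbered libraries' deviations from the group mean were 0.04, −0.06 and 0.08. Those of differently numbered libraries ran from −0.19 to 0.19. So few libraries cannot settle whether the numbers pair them. With the replicate block 0 CHD genes and 7 genes in all were called.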
